A study of Mus musculus with 24 samples.

Results

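Purkinje cell identity genes are genes that mark Purkinje cells, the output neurons of the cerebellar cortex, or that set and carry out their identity. A list of 28 such genes was read by gene symbol from 2 count tables of a mouse RNA-seq series. All 28 were found, each under a gene identifier, among the 46078 genes of each table. Where a symbol had several identifiers, that with the most counts was to be used. The list holds genes of signalling, synapse, membrane and cytoskeleton together with 8 transcription regulators.

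The series measured RNA in mice that carry a GFP-PR28 construct, a fluorescent protein joined to a proline-arginine dipeptide repeat, at the Rosa26 site behind a floxed stop. Heterozygous mice were GFP-PR28 flox/+ and Thy1-Cre+, labelled OE in the series, in which Cre under the Thy1 promoter removes the stop in neurons. Control mice, labelled WT, were littermates that were GFP-PR28 flox/+ without Thy1-Cre, so that the floxed allele was present in both groups. All were on the C57BL/6 strain, males unless the study says otherwise, and cerebellum was taken at 2 and 5 months of age, and cerebral cortex and lumbar spinal cord at 6 months, from 3 mice of each genotype. Expression of GFP-PR28 and of Cre cannot be told apart in this design. In the cerebellum the study saw GFP-PR28 mainly in the Purkinje cell layer, while Cre was also seen in the granular layer. Each library came from bulk tissue, in which fewer cells of a type and less RNA per cell cannot be told apart.

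Purkinje cells receive excitatory input from parallel fibres and climbing fibres and inhibit the deep cerebellar nuclei. Parallel fibre input acts through metabotropic glutamate receptors, Gq proteins and phospholipase C beta to make inositol trisphosphate, which releases calcium from internal stores. The cells form parasagittal stripes that differ in zebrin II, the product of Aldoc, and their development depends on regulators such as Rora, Skor2 and the LIM homeodomain factors Lhx1 and Lhx5.

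Cerebellar libraries of 2 months held 14166962, 15199953 and 13123582 counts in control mice 1, 3 and 5. Heterozygous mice 2, 4 and 6 of that age held 15858875, 12835400 and 15415448 counts. At 5 months the totals were 14974504, 15931683 and 16266434 counts in control mice 7, 9 and 11 and 13980415, 15278223 and 16327811 in heterozygous mice 8, 10 and 12. Cortex libraries ranged from 17084506 to 21058595 counts and spinal cord libraries from 17121314 to 25490124. Levels are given as CPM, counts scaled by library size and trimmed mean of M values, and always in the order of these mouse numbers. A gene was called when edgeR gave an adjusted p under 0.05 over all genes tested and a log2 fold change, heterozygous over control, above 0.2 in size.

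The library of control mouse 1 at 2 months stood apart. Across genes, its deviations from the mean of the cerebellar libraries of that age had an SD of 0.42 on the log2 scale, against 0.19 to 0.21 in the others of that age. Their Spearman correlation with transcript GC content was 0.44 for this library and between −0.28 and −0.15 for the others, a description across genes, which are not independent replicates. Cortex control mouse 1 likewise had an SD of 0.48 against 0.25 to 0.28 in the other cortex libraries. Log2 fold changes of genes given by mouse at 2 months are printed with and without control mouse 1. Ddx3y, a gene of the Y chromosome, stood at 44.5 CPM in control mouse 1 and between 96.3 and 112 CPM in the other cerebellar libraries, and Xist had at most 14 counts in any of the 24 libraries.

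The cerebellar label was checked against these markers. Of the 28 genes, 23 were higher in every control cerebellar library of 5 months than in every control library of cortex and spinal cord. Levels here are CPM scaled over all 24 libraries. Ebf1, among the 23, did not hold to this at 2 months, with a lowest control cerebellum value of 58.7 CPM against up to 59.4 CPM in control spinal cord. Pcp2 averaged 213 CPM (SD 11.7, n = 3) in control cerebellum at 5 months, 0.506 CPM in cortex and 2.07 CPM in spinal cord. Ppp1r17 averaged 216, 0.273 and 1.94 CPM in the same order, and Arhgef33 195, 1.70 and 3.68 CPM. These genes were thus close to absent in control cortex and lumbar spinal cord, the only other tissues sequenced. The mean at 5 months was over 10-fold above cortex for 13 genes, over 10-fold above spinal cord for 7, and above both for 6.

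The exceptions were Aldoc, Foxp2, Ebf2, Bcl11a and Itpka. Aldoc, which astrocytes also express, averaged 1653 CPM in cerebellum and 1600 CPM in spinal cord. Itpka was at 48.4 CPM in cerebellum against 176 CPM in cortex, and Bcl11a at 15.4 CPM against 126 CPM. Foxp2 (10.3 and 13.6 CPM) overlapped with cortex, and Ebf2 was at 11.2 CPM against 18.5 CPM in spinal cord. Per kb of exon, the highest levels in control cerebellum at 5 months were those of Aldoc (507 CPM per kb), Pcp4 (306), Rgs8 (139.5), Dner (138) and Ppp1r17 (123), and the lowest was that of Foxp2 (0.629). Tissue, age and, for cortex and spinal cord, the count table change together, so these levels are a description without a test.

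**Figure D1:**
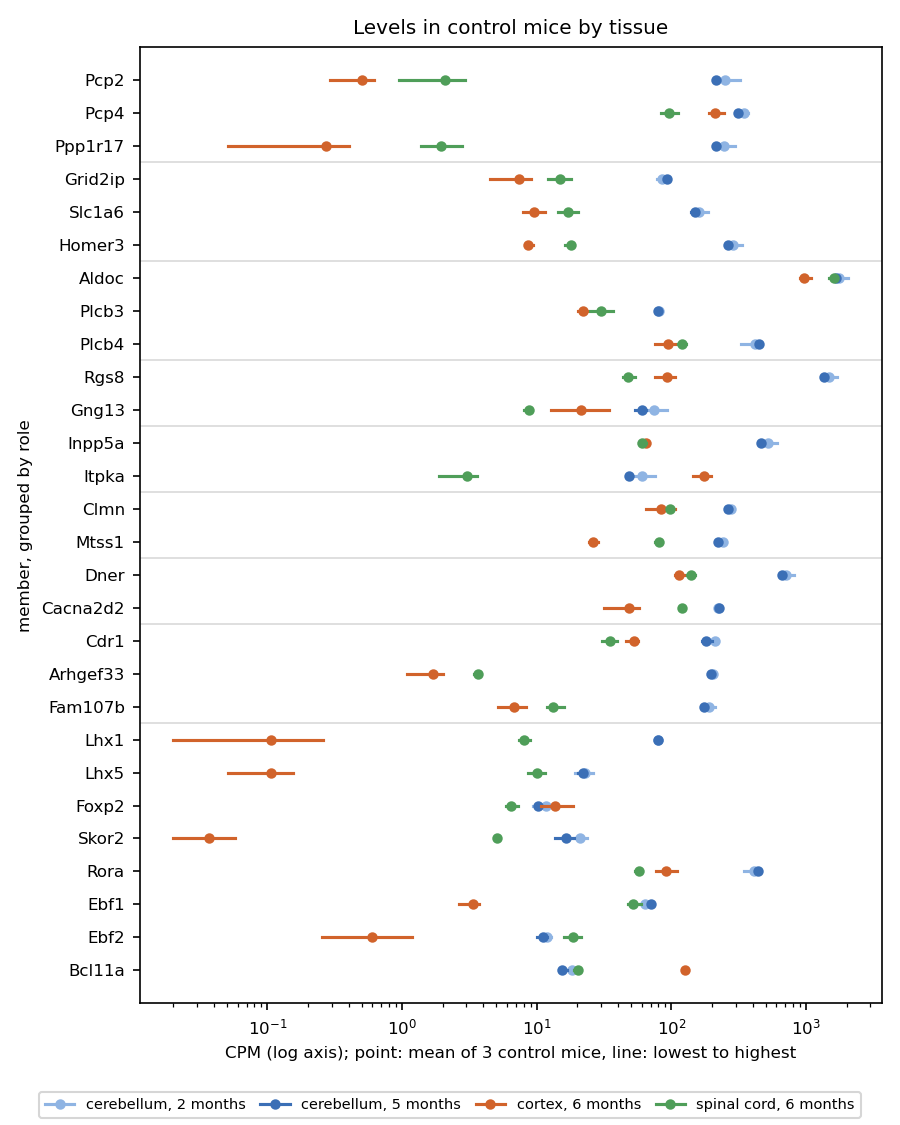
Level of each of the 28 genes in control mice, in CPM on a log axis, grouped by role. Points are means of 3 mice and lines run from the lowest to the highest mouse, with the lowest values drawn at the left edge; Pcp2, Ppp1r17 and Arhgef33 lie far to the right in cerebellum, while Itpka and Bcl11a lie further right in cortex.

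At 5 months the genotypes differed in 13 of the 28 genes, of which 9 were lower and 4 higher in heterozygous mice. Over all 16481 genes tested, 5.09% were called, 2.72% lower and 2.37% higher. Lower were Grid2ip, Ppp1r17, Homer3, Plcb3, Rgs8, Clmn, Cdr1, Fam107b and Itpka, and higher were Pcp2, Lhx1, Foxp2 and Ebf1. The groups did not overlap in any of the 13 called genes, and in 18 of the 28 in all, against 24.8% of all genes tested. Summed over the 28 genes, the level was 7963, 7958 and 7966 CPM in control mice and 7056, 7422 and 6931 CPM in heterozygous mice. Rgs8 alone made up 53.5% of this difference between the means, and without it the sums were 6634, 6637 and 6561 CPM against 6167, 6453 and 6060 CPM. The median log2 fold change was −0.073 over the 28 genes, with 17 negative and 11 positive values, and 0.0088 over all genes tested. DESeq2 called 9 lower and 3 higher, against 2.6% and 1.59% of all genes, and before adjustment p was under 0.05 in 19 of the 28 and in 20.3% of all genes. The number called higher rested on single libraries, with 2, 1 and 2 called without control mouse 7, control mouse 9 and heterozygous mouse 10. With all 12 cerebellar libraries in the same model none of the 4 passed, against 0.617% of all genes, whereas 6 of the 28 were then called lower, against 0.718%. That model includes control mouse 1 of 2 months, whose library stood apart, and is not given without it. In that model the log2 fold changes at 5 months hardly moved. The SE rose from 0.045 to 0.136 for Pcp2 and from 0.040 to 0.086 for Homer3, and fell from 0.14 to 0.11 for Cdr1.

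**Figure D2:**
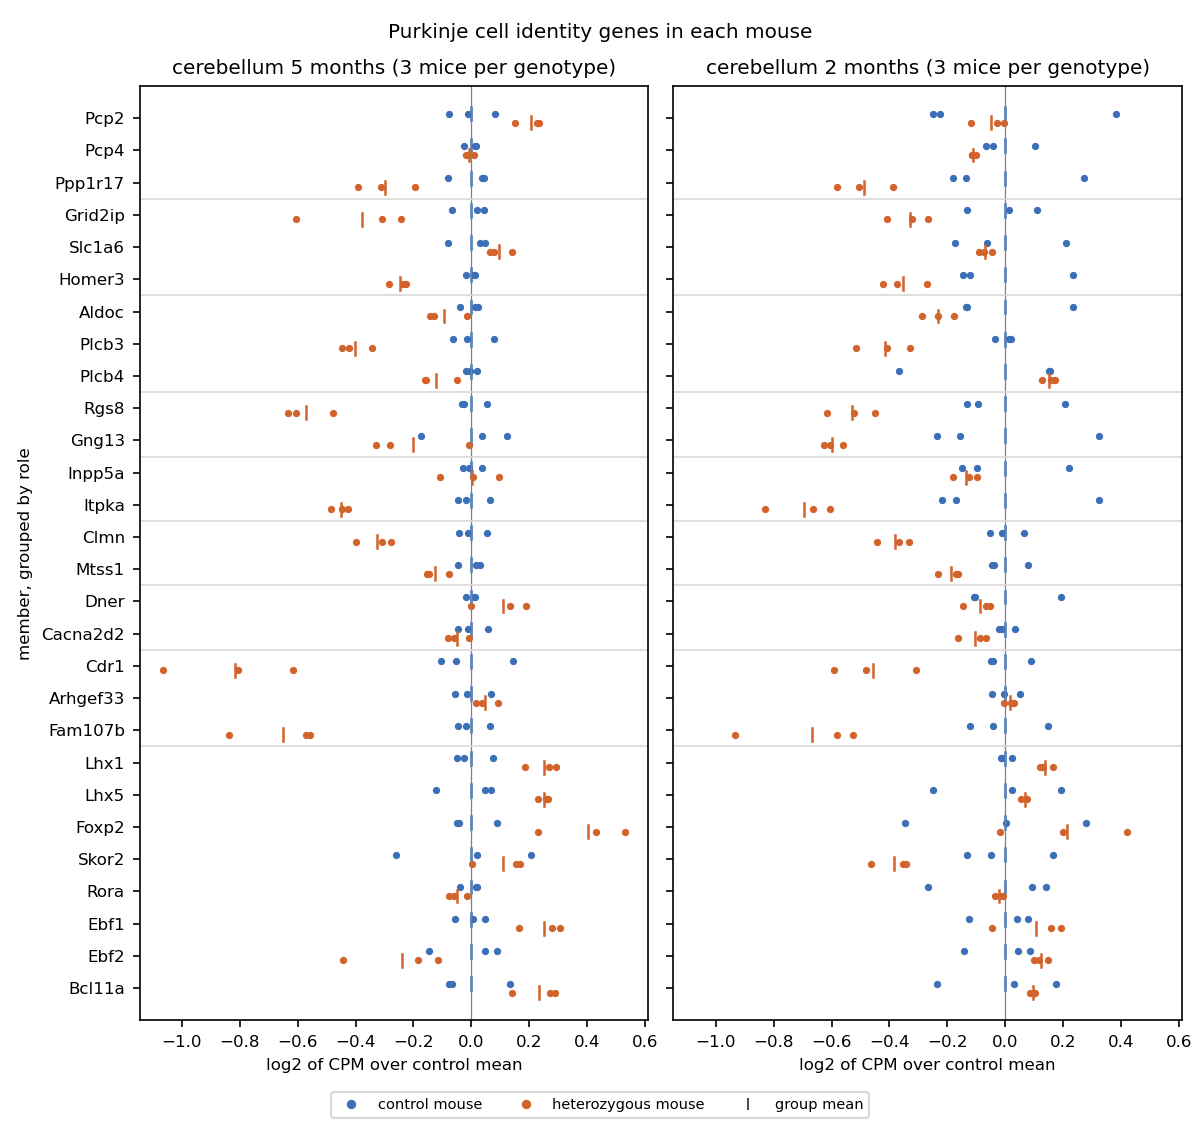
Level of each gene in each mouse as log2 of CPM over the mean of the control mice of that age, grouped by role, at 5 months (left) and 2 months (right). Dots are mice (3 per genotype) and bars are group means; at 5 months the heterozygous dots of Rgs8, Fam107b and Cdr1 lie well to the left of the control dots, and at 2 months control mouse 1 lies apart from the other control mice in many genes.

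Of the genes of G protein and inositol signalling, Rgs8, Plcb3 and Itpka were called at 5 months, and Gng13, Plcb4 and Inpp5a were not. Rgs8 (ENSMUSG00000042671, chr1:153653025-153700323, plus strand, GRCm38) encodes a GTPase-accelerating protein that shortens G protein signals. At 5 months Rgs8 stood at 1328, 1321 and 1404 CPM in control mice and at 889, 969.8 and 871 CPM in heterozygous mice. The highest heterozygous mouse lay far below the lowest control mouse, and Rgs8 fell (log2 fold change −0.57 ± 0.044 SE, adjusted p = 8.79e-08, 3 mice against 3). At 2 months it stood at 1678, 1363 and 1327 CPM in control mice and 1065, 950.5 and 1013 CPM in heterozygous mice. The groups did not overlap at 2 months either, and the log2 fold change was −0.53 ± 0.10 SE (adjusted p = 0.352 by edgeR), or −0.41 without control mouse 1 (adjusted p = 1.06e-08).

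Gng13, a G protein gamma subunit, was at 53.5, 61.8 and 65.6 CPM in control mice and 47.9, 59.9 and 49.6 CPM in heterozygous mice at 5 months. The groups overlapped and the difference was not called (log2 fold change −0.20 ± 0.094 SE, adjusted p = 0.264). Without heterozygous mouse 10, the highest of its group, Gng13 was called lower (log2 fold change −0.31, adjusted p = 0.0348, range over the alternatives 0.0212 to 0.626), as it was with no filter on low counts. At 2 months Gng13 was at 91.2, 65.4 and 61.8 CPM in control mice and 49.4, 47.9 and 47.1 CPM in heterozygous mice, with no overlap (log2 fold change −0.60, not called, and −0.40 and called lower without control mouse 1).

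Plcb3 and Plcb4 encode phospholipases C beta, which cleave membrane phosphoinositide after metabotropic glutamate receptor activation and are known to prevail in zebrin-positive and zebrin-negative stripes respectively. Plcb3 (ENSMUSG00000024960, chr19:6952325-6976470, minus strand) stood at 84.3, 76.4 and 79.1 CPM in control mice and 58.7, 62.9 and 59.7 CPM in heterozygous mice at 5 months. It fell in heterozygous mice, all of which lay below all control mice (log2 fold change −0.40 ± 0.055 SE, adjusted p = 0.000129). At 2 months the values were 81.2, 78.3 and 80.9 CPM against 63.9, 56.0 and 60.4 CPM, again without overlap (log2 fold change −0.41, adjusted p = 0.295 by edgeR and 0.0319 by DESeq2, and −0.40 and called lower without control mouse 1). Plcb4 ranged from 443 to 455 CPM in control mice and from 401 to 433 CPM in heterozygous mice at 5 months, a difference that did not pass the test (log2 fold change −0.12 ± 0.041 SE, adjusted p = 0.0829).

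Itpka, a kinase that converts inositol trisphosphate to the tetrakisphosphate, was at 50.8, 48.0 and 47.1 CPM in control mice and at 36.2, 35.7 and 34.8 CPM in heterozygous mice at 5 months. It fell in all heterozygous mice (log2 fold change −0.45 ± 0.063 SE, adjusted p = 0.000158), but was not called with all 12 cerebellar libraries in the same model (adjusted p = 0.0879, range over the alternatives 6.65e-09 to 0.0879). At 2 months Itpka was at 74.2, 51.0 and 52.7 CPM in control mice and 39.0, 33.4 and 37.4 CPM in heterozygous mice, without overlap (log2 fold change −0.69, and −0.49 and called lower without control mouse 1). Inpp5a, the phosphatase that removes a phosphate from inositol trisphosphate, ranged from 456 to 477 CPM in control mice and from 431 to 497 CPM in heterozygous mice at 5 months. The groups overlapped, with a log2 fold change near 0 (3.1e-04 ± 0.046 SE).

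Promoters were read from RefSeq windows on GRCm38.p6 that run from 250 bases before to 50 after each start, which held 22 of the 28 genes. Skor2, Lhx5, Foxp2, Mtss1, Ppp1r17 and Ebf2 had no entry. Motifs bound by regulators on the list were searched on both strands, namely AGGTCA (core of the element bound by Rora), CCCNNGGG (bound by EBF factors) and TAATTA (bound by LIM homeodomain factors). The 250 bases before the start are shown for the 2 genes called at 5 months that hold a motif there in a window free of annotated exons. The promoter of Itpka lies at chr2:119742087-119742336 on the plus strand, with CCCNNGGG in capitals 51 bases before the start. That of Plcb3 lies at chr19:6969815-6970064 on the minus strand, before a start inside the annotated span of the gene, with AGGTCA read on the opposite strand in capitals 246 bases before the start.
Itpka: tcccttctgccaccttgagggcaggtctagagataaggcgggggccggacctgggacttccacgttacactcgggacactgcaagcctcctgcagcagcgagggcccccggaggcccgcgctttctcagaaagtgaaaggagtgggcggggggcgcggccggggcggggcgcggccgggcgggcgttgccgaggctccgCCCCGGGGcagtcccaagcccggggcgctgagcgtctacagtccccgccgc
Plcb3: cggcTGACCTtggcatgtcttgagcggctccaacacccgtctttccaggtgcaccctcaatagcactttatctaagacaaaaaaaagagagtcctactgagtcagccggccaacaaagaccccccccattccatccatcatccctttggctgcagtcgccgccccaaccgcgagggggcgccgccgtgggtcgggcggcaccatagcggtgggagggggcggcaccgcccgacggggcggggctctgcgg
AGGTCA was found in 7 of the 22 genes (31.8%: Arhgef33, Dner, Homer3, Pcp2, Pcp4, Plcb3 and Rgs8), against 18.1% of 27025 genes and, counted by promoter, in 9 of 33 (27.3%) against 16.3% of all 32851. CCCNNGGG was found in 4 (18.2%: Aldoc, Gng13, Itpka and Slc1a6), against 15.4% of genes, but in 4 of 33 promoters (12.1%) against 13.7%. TAATTA was found in 2 genes (9.09%: Arhgef33 and Pcp2) against 6.12%, and in 2 promoters (6.06%) against 5.29%. A match is a description of letters and not evidence of binding.

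Synaptic scaffolds were lower at 5 months while the glutamate transporter was not called. Grid2ip encodes delphilin, a postsynaptic scaffold that binds the delta glutamate receptor at parallel fibre synapses. Grid2ip was at 94.2, 88.8 and 95.8 CPM in control mice and 61.1, 75.0 and 78.5 CPM in heterozygous mice at 5 months, of which mouse 8 was the lowest. It fell (log2 fold change −0.37 ± 0.077 SE, adjusted p = 0.0122), but the call was lost without control mouse 7 (log2 fold change −0.37, adjusted p = 0.0592) or 11 (−0.35, adjusted p = 0.0624, range over all alternatives 1.13e-09 to 0.0624). At 2 months its values were 76.6, 90.7 and 84.7 CPM in control mice and 69.8, 63.3 and 67.3 CPM in heterozygous mice. There too the groups did not overlap (log2 fold change −0.33, and −0.39 and called lower without control mouse 1).

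Homer3, a scaffold that links metabotropic glutamate receptors to calcium stores, was at 263, 259 and 264 CPM in control mice and 215, 224 and 222 CPM in heterozygous mice at 5 months. The difference was small but larger than the spread within either group, and Homer3 fell (log2 fold change −0.25 ± 0.04 SE, adjusted p = 0.000622), but was not called with all 12 cerebellar libraries in the same model (adjusted p = 0.225, range over the alternatives 2.10e-06 to 0.225). At 2 months Homer3 was at 330.5, 258 and 254 CPM in control mice and 233, 209.8 and 217 CPM in heterozygous mice (log2 fold change −0.35, and −0.22 and called lower without control mouse 1). Slc1a6, the glutamate transporter of Purkinje cell spines, was at 154, 152 and 141 CPM in control mice and 156, 164 and 157 CPM in heterozygous mice at 5 months. All heterozygous mice lay slightly above the control mice, and the difference was not called (log2 fold change 0.095 ± 0.046 SE, adjusted p = 0.256). At 2 months Slc1a6 was at 184, 152 and 141 CPM against 154, 149 and 151 CPM, which overlapped (log2 fold change −0.07, or 0.049 without control mouse 1).

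The small Purkinje cell proteins went in different directions. Pcp2 (ENSMUSG00000004630, chr8:3623371-3625545, minus strand), a regulator of inhibitory G proteins and a standard Purkinje cell marker, was at 204, 213 and 227 CPM in control mice and 238, 251 and 252 CPM in heterozygous mice at 5 months. All heterozygous mice were above all control mice, and Pcp2 rose just past the fold change threshold (log2 fold change 0.205 ± 0.045 SE, adjusted p = 0.00869). The call was lost without control mouse 7 (0.17), control mouse 9 (0.198), heterozygous mouse 10 (0.19) or heterozygous mouse 12 (0.19), and when length and GC content of transcripts entered as an offset (0.16). With all 12 cerebellar libraries in the same model the adjusted p was 0.615, and over the alternatives it ranged from 0.000285 to 0.615. At 2 months Pcp2 was at 318, 209 and 206 CPM in control mice and 239.6, 244 and 225 CPM in heterozygous mice. Control mouse 1 was far above the rest, and its removal turned the log2 fold change from −0.049 to 0.19 (adjusted p = 0.00078, under the fold change threshold).

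Ppp1r17, the substrate of cGMP-dependent kinase that inhibits protein phosphatases, was at 205, 223 and 222 CPM in control mice and 175, 189 and 165 CPM in heterozygous mice at 5 months. It fell, with all heterozygous mice below all control mice (log2 fold change −0.30 ± 0.051 SE, adjusted p = 0.00128), but was not called with all 12 cerebellar libraries in the same model (adjusted p = 0.233, range over the alternatives 9.52e-09 to 0.233). At 2 months the values were 293, 220.5 and 214 CPM in control mice and 185, 162 and 171 CPM in heterozygous mice, again without overlap (log2 fold change −0.49, and −0.33 and called lower without control mouse 1). Pcp4, a calmodulin-binding peptide, was at 318, 309.6 and 319 CPM in control mice and 311, 317 and 313 CPM in heterozygous mice at 5 months, which overlapped (log2 fold change −0.0074 ± 0.038 SE). At 2 months Pcp4 was at 366, 331 and 325 CPM in control mice and 315, 315 and 318 CPM in heterozygous mice, with a log2 fold change of −0.11, or −0.054 without control mouse 1. Neither value passed the test.

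Of the genes of cytoskeleton and cell surface, Clmn was called. Clmn (ENSMUSG00000021097, chr12:104763117-104865076, minus strand) encodes calmin, an actin-binding membrane protein, and was at 255, 261 and 273 CPM in control mice and 199.9, 213 and 217 CPM in heterozygous mice at 5 months. It fell in all heterozygous mice (log2 fold change −0.33 ± 0.044 SE, adjusted p = 9.69e-05). At 2 months Clmn was at 283, 269 and 261 CPM in control mice and 215, 199 and 209.8 CPM in heterozygous mice, without overlap (log2 fold change −0.38, adjusted p = 0.295 by edgeR and 0.0183 by DESeq2, and −0.34 and called lower without control mouse 1). Mtss1, an organiser of actin in dendrites and spines, ranged from 217 to 229 CPM in control mice and from 201 to 212 CPM in heterozygous mice at 5 months, without overlap and without a call (log2 fold change −0.13 ± 0.042 SE, adjusted p = 0.0804). Dner, a Notch ligand of Purkinje cells, had a log2 fold change of 0.11 and Cacna2d2, an auxiliary calcium channel subunit, of −0.049, and in both the groups overlapped.

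Fam107b (ENSMUSG00000026655, chr2:3570488-3782142, plus strand) was at 183, 173 and 169.9 CPM in control mice and 119, 118 and 98.2 CPM in heterozygous mice at 5 months. It fell, with the highest heterozygous mouse far under the lowest control mouse (log2 fold change −0.65 ± 0.065 SE, adjusted p = 4.60e-05). At 2 months Fam107b was at 208, 182 and 173 CPM in control mice and 126, 98.4 and 130.5 CPM in heterozygous mice, without overlap (log2 fold change −0.67, adjusted p = 0.295 by edgeR and 0.00232 by DESeq2). Without control mouse 1 edgeR did not call it either (−0.58, adjusted p = 0.236). Arhgef33, a predicted guanine nucleotide exchange factor, had overlapping groups and a log2 fold change of 0.048.

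Cdr1, named after an antigen of cerebellar degeneration, was at 176, 202 and 169.7 CPM in control mice and 104, 119 and 87.2 CPM in heterozygous mice at 5 months. The separation was wide and Cdr1 fell (log2 fold change −0.82 ± 0.14 SE, adjusted p = 0.0394). The call was lost without control mouse 7 (adjusted p = 0.115), 9 (0.0536) or 11 (0.0771) or heterozygous mouse 8 (0.133), and with the length and GC offset (0.0511, range over the alternatives 6.59e-06 to 0.133), while the log2 fold change lay between −0.93 and −0.71 in those that left out a mouse. At 2 months Cdr1 was at 202, 221 and 200.5 CPM in control mice and 167, 138 and 149 CPM in heterozygous mice, without overlap (log2 fold change −0.46, adjusted p = 0.378 by edgeR and 0.0185 by DESeq2). Without control mouse 1 edgeR did not call it either (−0.47, adjusted p = 0.125). Cdr1 lies within a transcript of the opposite strand, C230004F18Rik, and the kit does not mark strand, so reads of the 2 cannot be told apart where they overlap. C230004F18Rik was at 19.3, 18.9 and 15.7 CPM in control mice and 17.1, 17.8 and 14.4 CPM in heterozygous mice at 5 months, which overlapped (log2 fold change −0.13, not called). Exons of the opposite strand also overlap those of Pcp2 (Pet100), Grid2ip (Gm20635), Homer3 (Ddx49), Plcb3 (Ppp1r14b), Rgs8 (Gm29529), Gng13 (Chtf18), Lhx5, Rora, Inpp5a, Ebf2, Bcl11a, Dner, Arhgef33 and Cacna2d2, and exons of the same strand those of Pcp4 (Igsf5), which makes their counts uncertain by the share of such reads.

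Zebrin II, the aldolase encoded by Aldoc, defines the stripes. Aldoc was at 1689, 1677 and 1618 CPM in control mice and 1504, 1644 and 1519 CPM in heterozygous mice at 5 months. Heterozygous mouse 10 lay among the control mice, and Aldoc was not called (log2 fold change −0.095 ± 0.041 SE, adjusted p = 0.19). At 2 months Aldoc was at 2019, 1563 and 1567 CPM in control mice and 1518, 1408 and 1461 CPM in heterozygous mice (log2 fold change −0.23, or −0.10 without control mouse 1, neither called). Of 4 genes of zebrin-positive stripes (Aldoc, Plcb3, Slc1a6 and Gabbr2), Plcb3 and Gabbr2 were called lower at 5 months, against 2.72% of all genes. The median log2 fold change of the 4 was −0.16. Gabbr2, a metabotropic GABA receptor subunit, had a log2 fold change of −0.22, and −0.196 and no call without control mouse 9. Of the 2 genes read for zebrin-negative stripes (Plcb4 and Ebf2), edgeR and DESeq2 called none, with a median of −0.18 and 1 at an unadjusted p under 0.05 (20.3% of all genes). Both lists had negative medians at 5 months, but at 2 months the median was −0.25 for zebrin-positive genes, all 4 negative, and 0.14 for zebrin-negative genes, both positive. Without control mouse 1 these medians were −0.16 and 0.087, with 3 of the 4 zebrin-positive genes negative and Slc1a6 at 0.049. At 2 months edgeR called none in either, with 2 zebrin-positive genes and 0 zebrin-negative genes at an unadjusted p under 0.05 (5.16% of all genes). DESeq2 called 1 and 0 lower, against 0.226% of all genes. Without control mouse 1 edgeR called Plcb3 and Gabbr2 lower, against 1.18% of all genes. Plcb4 and Ebf2 at 2 months had log2 fold changes of 0.15 and 0.12, or 0.0002 and 0.17 without control mouse 1.

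Transcription regulators were higher or not called. Of the 8 genes, 6 had a positive log2 fold change at 5 months, 3 were called higher and none lower by edgeR (2.37% and 2.72% of all genes), with a median of 0.24, and DESeq2 called only Lhx1 and Ebf1 (1.59% of all genes higher). Lhx1, a LIM homeodomain factor, was at 77.9, 76.6 and 83.5 CPM in control mice and 90.3, 97.2 and 95.5 CPM in heterozygous mice at 5 months. It rose in all heterozygous mice (log2 fold change 0.25 ± 0.052 SE, adjusted p = 0.00557), and kept its call when any single library was left out, but not with all 12 cerebellar libraries in the same model (adjusted p = 0.0508, range over the alternatives 0.000216 to 0.0508). At 2 months Lhx1 was at 77.7, 77.7 and 79.8 CPM in control mice and 85.1, 85.8 and 87.8 CPM in heterozygous mice, also without overlap and without a call (log2 fold change 0.14, or 0.13 without control mouse 1).

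Ebf1, of the early B cell factor family, was at 73.4, 68.3 and 71.3 CPM in control mice and 79.6, 86.1 and 87.8 CPM in heterozygous mice at 5 months. Ebf1 rose (log2 fold change 0.25 ± 0.054 SE, adjusted p = 0.00677), but was not called without control mouse 9 (log2 fold change 0.22, adjusted p = 0.0521) or with all 12 cerebellar libraries in the same model (range over the alternatives 0.00032 to 0.147). At 2 months Ebf1 was at 57.7, 66.5 and 64.7 CPM in control mice and 70.3, 72.0 and 61.1 CPM in heterozygous mice, which overlapped (log2 fold change 0.11, or 0.045 without control mouse 1). Foxp2, a forkhead repressor, was at 10.0, 9.97 and 11.0 CPM in control mice and 13.9, 14.9 and 12.1 CPM in heterozygous mice at 5 months. Foxp2 was called higher (log2 fold change 0.40 ± 0.12 SE, adjusted p = 0.0444), but this was lost without control mouse 7 (adjusted p = 0.127), 9 (0.141) or 11 (0.0911) or heterozygous mouse 8 (0.0811) or 10 (0.177), by DESeq2 (0.121), with non-robust dispersions and with all 12 cerebellar libraries in the same model, so that 4 of 12 alternatives called it (range of adjusted p 0.0235 to 0.282). At 2 months Foxp2 was at 9.16, 11.7 and 14.1 CPM in control mice and 11.5, 15.6 and 13.3 CPM in heterozygous mice, which overlapped (log2 fold change 0.21, or 0.064 without control mouse 1).

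Rora, the nuclear receptor that Purkinje cells need to mature, was at 448, 447 and 430.2 CPM in control mice and 423, 437 and 419 CPM in heterozygous mice at 5 months. These values overlapped, and the log2 fold change was −0.051 ± 0.039 SE. At 2 months Rora was at 339, 449 and 435 CPM in control mice and 402, 398 and 406 CPM in heterozygous mice, with control mouse 1 the lowest (log2 fold change −0.021, or −0.14 without it, adjusted p = 0.00588, under the fold change threshold). Skor2, a corepressor needed for Purkinje cell differentiation, was at 16.7, 13.7 and 19.0 CPM in control mice and 18.5, 18.3 and 16.5 CPM in heterozygous mice at 5 months, which overlapped. At 2 months Skor2 was at 23.1, 18.7 and 19.9 CPM in control mice and 16.1, 16.2 and 14.9 CPM in heterozygous mice, and there the heterozygous mice lay below the control mice (log2 fold change −0.39, or −0.29 without control mouse 1, neither called, against 0.11 at 5 months). Lhx5 (0.25, adjusted p = 0.0655) and Bcl11a (0.23) had positive log2 fold changes at 5 months and Ebf2 (−0.24) a negative value, none of them called.

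**Figure D3:**
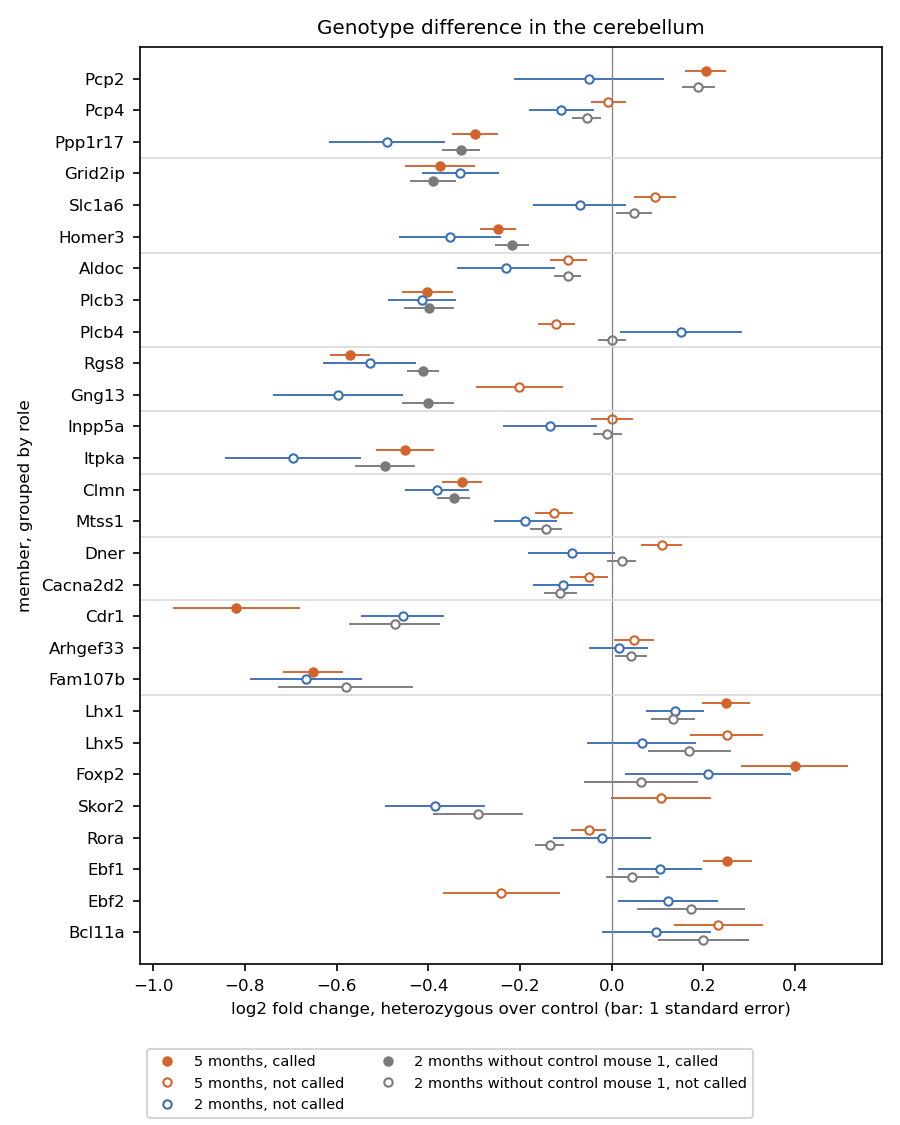
Log2 fold change, heterozygous over control, of each gene in the cerebellum at 5 months, at 2 months, and at 2 months without control mouse 1, grouped by role. Bars are 1 standard error and filled points are called genes; the 13 filled points of 5 months run from −0.82 for Cdr1 to 0.40 for Foxp2, and no point is filled at 2 months with all mice.

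At 2 months edgeR called none of the 28 genes, as it called 0 of 16208 genes (0%), and the smallest adjusted p of the 28 was 0.295. Before adjustment, p was under 0.05 in 12 of the 28 and in 5.16% of all genes tested. DESeq2 called 6 lower (Plcb3, Rgs8, Clmn, Cdr1, Fam107b and Itpka), against 0.226% of all genes, and all 6 were called lower by edgeR at 5 months. Without control mouse 1, edgeR called 8 lower (Grid2ip, Ppp1r17, Homer3, Plcb3, Rgs8, Gng13, Clmn and Itpka), against 1.18% of all genes, and none higher, against 1.01%. Of those 8 genes, 7 were called lower at 5 months. Among all genes called lower at 2 months, by DESeq2 or without control mouse 1, the share also called lower at 5 months is not given. These counts of 6 and 7 genes therefore have no background to be read against, and whether the recurrence is particular to the list was not tested. The groups did not overlap in 17 of the 28 genes, against 14.2% of all genes. The median log2 fold change was −0.12, or −0.10 without control mouse 1, against 0.0082 and 0.0047 over all genes tested, and the summed level was 9170, 7970 and 7840 CPM in control mice and 7332, 6868 and 7115 CPM in heterozygous mice.

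Between the ages, which share no mice, 21 of the 28 genes had the same sign of log2 fold change, among them 12 of the 13 called at 5 months, against 58.7% of all genes tested at both ages. Among all genes called at 5 months the share was 82.4%. Without control mouse 1, 24 of the 28 had the same sign, against 65.5% of all genes. So did 13 of the 13 called at 5 months, for which the share among all called genes is not given without that mouse. In 11 genes the groups did not overlap in the same direction at both ages, 10 of them lower, against 5.28% of all genes. The difference between the ages was itself tested as an interaction, in which edgeR and DESeq2 called none of the 28, as edgeR called 0% of all genes. An unadjusted p under 0.05, found for 3.83% of all genes, was reached by Skor2 (log2 difference 0.50 ± 0.17 SE, 5 months minus 2 months), Cdr1 (−0.36 ± 0.15) and Ebf2 (−0.36 ± 0.17), with an adjusted p of 0.922 for each. The interaction includes control mouse 1 of 2 months and is not given without it. Without that mouse the log2 fold change at 2 months alone was −0.29 for Skor2, −0.47 for Cdr1 and 0.17 for Ebf2. With it the values were −0.39, −0.46 and 0.12. Among control mice, 5 against 2 months, edgeR and DESeq2 called none, against 0.16% of all genes, with 3 genes at an unadjusted p under 0.05 (13% of all genes), namely Pcp4 (log2 fold change −0.13), Skor2 (−0.33) and Itpka (−0.30). These values include control mouse 1 of 2 months, whose library stood apart, and are not given without it. That mouse was the highest control of its age in each, with Itpka at 74.2 CPM against 51.0 and 52.7 CPM. Pcp4 was at 366 CPM in it against 331 and 325 CPM, and Skor2 at 23.1 CPM against 18.7 and 19.9 CPM.

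The study scaled its PCR of genes of synaptic transmission to Pcp2, and here each of the other 27 genes was also taken as a log2 ratio to Pcp2 in the same mouse. At 5 months the ratio was lower in every heterozygous mouse than in every control mouse for 17 of the 27 genes, higher in none, and overlapping for 10, against 41.9% lower and 2.29% higher among all other genes tested. Since Pcp2 itself was higher in heterozygous mice at that age, a lower ratio was thus common among all genes. The differences included Cdr1 (−1.03 on the log2 scale), Fam107b (−0.86), Rgs8 (−0.78), Clmn (−0.53) and Pcp4 (−0.21). For the other 3 genes called higher the groups overlapped in this ratio, with differences of 0.044 for Lhx1, 0.044 for Ebf1 and 0.19 for Foxp2. At 2 months the ratio was lower in every heterozygous mouse for 7 genes (Ppp1r17, Homer3, Skor2, Rgs8, Gng13, Fam107b and Itpka) and overlapped for 20, against 2.05% lower and 2.36% higher among all other genes tested. An exact two-sided permutation test of 3 mice against 3 cannot go below p = 0.1, which all genes without overlap reached. At 2 months the high Pcp2 value of control mouse 1 enters every ratio, and the ratios were not computed without it.

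In cortex 23 of the 28 genes passed the filter on low counts, and none was called by edgeR (0.0358% of all genes) or DESeq2, with 7 at an unadjusted p under 0.05 (11.5% of all genes) and a smallest adjusted p of 0.362. Ppp1r17, Lhx1, Lhx5, Skor2 and Ebf2 were too low to test there. In spinal cord all 28 were tested and none was called by edgeR (0.108% of all genes) or DESeq2, with 2 at an unadjusted p under 0.05 (6.48% of all genes) and a smallest adjusted p of 0.755. Rgs8 was at 72.7, 91.1 and 100.5 CPM in cortex of control mice and 113, 105 and 92.6 CPM in heterozygous mice, which overlapped, and its log2 fold change was 0.23 in cortex, or 0.12 without control mouse 1, whose library stood apart. In spinal cord Rgs8 was at 46.3, 45.4 and 55.8 CPM in control mice and 49.0, 50.2 and 71.5 CPM in heterozygous mice, with a log2 fold change of 0.21, or 0.012 without heterozygous mouse 3, the spinal cord library with the most counts of Pcp2. Itpka, which is higher in cortex than in cerebellum, was at 191, 176 and 136 CPM in control cortex and 130.3, 131 and 106 CPM in heterozygous cortex. The heterozygous values lay below the control values with a log2 fold change of −0.45 (adjusted p = 0.362), or −0.34 without control mouse 1. Cdr1 was at 53.55, 53.2 and 43.4 CPM in control cortex and 38.1, 40.3 and 42.4 CPM in heterozygous cortex, without overlap. By edgeR its log2 fold change in cortex was −0.31 (adjusted p = 0.402), or −0.26 without control mouse 1. In spinal cord it was −0.24 (adjusted p = 0.755), and the groups overlapped.

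Whether the genotype difference itself differed between cerebellum at 5 months and the other tissues was tested as an interaction, added after the results were seen. Against cortex edgeR called none of the 28 (0.0903% of all genes), with 7 at an unadjusted p under 0.05 (12.6% of all genes), and DESeq2 called Grid2ip and Rgs8 (0.996% of all genes). Rgs8 had the smallest adjusted p, with a log2 difference of −0.81 ± 0.15 SE (adjusted p = 0.0553). Leaving out cortex control mouse 1, 2 or 3 gave 1, 1 and 2 called genes of the list. The share of all genes called in those fits is not given, so these counts have no background to be read against. Against spinal cord edgeR called none (0.156% of all genes), with 9 at an unadjusted p under 0.05 (8.75% of all genes), and DESeq2 called Rgs8, Clmn, Cdr1 and Fam107b (0.761% of all genes). There Clmn had the smallest adjusted p (0.0829, log2 difference −0.40 ± 0.085 SE). Leaving out spinal cord control mouse 1 or heterozygous mouse 1 gave 1 and 3 called genes of the list, again without a share of all genes. Without spinal cord heterozygous mouse 3 the log2 difference of Rgs8 was −0.58 (adjusted p = 0.0607), against −0.79 with it. By edgeR with all libraries, therefore, no gene of the list was shown to differ between tissues in its genotype difference.

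Transcript length moved with genotype at 5 months. Across genes, the Spearman correlation of a library's log2 deviations with exon length was 0.074 to 0.10 in control mice and −0.13 to −0.076 in heterozygous mice. Median exon length was 4.13 kb over all genes tested, 5.98 kb over genes called lower and 3.73 kb over genes called higher, while it was 4.33 kb for the 9 list genes called lower and 6.91 kb for the 4 called higher. When length and GC content entered the model as an offset, 8 of the 28 genes were called lower and 3 higher, against 2.41% and 2.2% of all genes. The cause of the link with length was not tested.

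Other genes of Purkinje cells were read from a list of 17 for metabotropic signalling, calcium stores, buffers and channels. At 5 months edgeR called 2 lower, against 2.72% of all genes, DESeq2 also called 2 lower, against 2.6%, and neither called any higher. An unadjusted p under 0.05 was found for 8, against 20.3% of all genes, and the median log2 fold change was −0.013. Pvalb was called higher without control mouse 9, and Atp2a2 lower without heterozygous mouse 10. The calcium pump gene Atp2a3 was at 299.7, 299.9 and 289 CPM in control mice and 183, 214 and 179 CPM in heterozygous mice. It fell without overlap (log2 fold change −0.63 ± 0.056 SE, adjusted p = 7.38e-06) and kept its call when any single library was left out. Gria3, a glutamate receptor subunit, was at 169, 169 and 176 CPM in control mice and 144, 149 and 151 CPM in heterozygous mice. It fell just past the threshold (log2 fold change −0.21 ± 0.043 SE, adjusted p = 0.00507) and was not called without control mouse 11 or heterozygous mouse 8 (log2 fold change −0.19 in both). The most abundant gene of the list was Itpr1, the calcium channel of the stores, and the summed level was 12430, 12490 and 12580 CPM in control mice and 11760, 12450 and 12100 CPM in heterozygous mice, which overlapped. At 2 months edgeR called none of the 17 and DESeq2 called 1 lower (0.226% of all genes), with 1 at an unadjusted p under 0.05 (5.16% of all genes). Without control mouse 1 edgeR called Atp2a3 lower, against 1.18% of all genes. The summed level at that age was 13500, 12670 and 12520 CPM in control mice and 12190, 11800 and 12160 CPM in heterozygous mice, lower in all of them.

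Some microglial genes were higher at 5 months. Of 13 listed, 12 were tested and 7 were called higher (C1qb, C1qc, Csf1r, Trem2, Tyrobp, Cd68 and Ctss), against 2.37% of all genes, with a median log2 fold change of 0.78. Their summed level was 128, 134 and 129.6 CPM in control mice and 201, 169.7 and 226 CPM in heterozygous mice 8, 10 and 12, so that mouse 10 was the lowest of its group and still above all control mice. The most abundant was Csf1r, at 31.6, 29.0 and 30.5 CPM in control mice and 40.0, 36.2 and 40.4 CPM in heterozygous mice, and none of the 13 was at 0. P2ry12 and Tmem119, defining markers of resting microglia, had log2 fold changes of 0.05 and 0.038 and were not called. Tyrobp lost its call without control mouse 7 (0.83, adjusted p = 0.095) or 11 (0.88, adjusted p = 0.107) or heterozygous mouse 12 (0.62, adjusted p = 0.14), and leaving out single libraries gave 6 to 9 called genes. At 2 months edgeR and DESeq2 called none, none had an unadjusted p under 0.05, and the summed levels (151, 119.5 and 120.3 CPM against 134, 144 and 129 CPM) overlapped. In spinal cord 6 of the 13 were called higher, where 0.108% of all genes were called in either direction. Summed levels there were 422, 409 and 424 CPM in control mice and 536, 644 and 607 CPM in heterozygous mice. The count of 6 fell to 0 without any of the libraries but heterozygous mouse 1, without which it was 8. In cortex all 13 had negative log2 fold changes (median −0.32), none was called by edgeR, and the summed level was 503, 408 and 436 CPM in control mice and 376, 364 and 351 CPM in heterozygous mice, lower in all of them. The part of these cells in the levels of the Purkinje cell genes was not tested.

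Oligodendrocyte genes had a lower summed level at 5 months, 4434, 4276 and 4501 CPM in control mice against 4067, 3966 and 3945 CPM in heterozygous mice, with Mbp the most abundant and none at 0. All 8 had negative log2 fold changes (median −0.11), of which edgeR and DESeq2 called none. An unadjusted p under 0.05 was found for 3, against 20.3% of all genes, and Mobp was called lower without control mouse 9 or heterozygous mouse 8. Of 12 granule cell genes, with Cbln3 the most abundant, edgeR called Etv1 (log2 fold change −0.30) and Gabra6 (−0.25) lower, against 2.72% of all genes. DESeq2 called 3 lower, against 2.6%, and the summed levels (7084, 7712 and 7308 CPM against 6997, 7307 and 6961 CPM) overlapped. Slc17a7 and Calb2 were called lower without heterozygous mouse 10, and Neurod1 lower without heterozygous mouse 8. Zic2 was called higher without heterozygous mouse 12. Gabra6, a GABA receptor subunit of granule cells, lost its call without control mouse 7 (adjusted p = 0.0867), 9 (0.126) or 11 (0.119) or heterozygous mouse 10 (0.153), and without heterozygous mouse 12 its log2 fold change was −0.18. Of 8 interneuron genes, with Kit the most abundant, Nxph1 was called higher (0.47), against 2.37% of all genes. Slc6a5, the glycine transporter of Golgi cells, was called lower (−0.28, and −0.25 with no call without control mouse 7), against 2.72%. The part of these cell types in the result was not tested either.

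Of 11 genes of Bergmann glia and astrocytes, Gdf10 (0.23) and the water channel gene Aqp4 (0.23) were called higher by edgeR, against 2.37% of all genes. DESeq2 called 3 higher, against 1.59%, and 8 had an unadjusted p under 0.05, against 20.3%. Gfap, an astrocyte filament, was at 126, 111 and 119.6 CPM in control mice and 267, 197 and 323 CPM in heterozygous mice. The groups did not overlap, but edgeR did not call it (log2 fold change 1.15 ± 0.21 SE, adjusted p = 0.0653). It was called higher by DESeq2 (adjusted p = 3.32e-06), and by edgeR with non-robust dispersions, with all 12 cerebellar libraries in the same model, and without heterozygous mouse 10, but in none of the other 8 alternatives. Neither Gdf10 nor Aqp4 was called in every leave-out, with 0.198 for Gdf10 without heterozygous mouse 12 and 0.19 for Aqp4 without control mouse 11. The summed level of the list, led by Slc1a3, was 3479, 3573 and 3473 CPM in control mice and 3558, 3655 and 3606 CPM in heterozygous mice, which overlapped. Of 5 genes of cerebellar nuclei and unipolar brush cells, Slc17a6 (0.37) and Spp1 (0.32), the most abundant, were called higher, against 2.37% of all genes. Eomes was called lower without heterozygous mouse 8. Slc17a6 lost its call without control mouse 11 (0.31, adjusted p = 0.0787), and Spp1 without control mouse 9 (0.28, adjusted p = 0.08) or heterozygous mouse 12 (0.25, adjusted p = 0.0731).

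By edgeR none was called among 6 endothelial genes, led by Flt1, with 1 at an unadjusted p under 0.05 (20.3% of all genes) and none by DESeq2. Among 7 tested genes of cortex neurons, led by Slc17a7, edgeR called none and DESeq2 called 1 lower (2.6% of all genes). Of these, 2 had an unadjusted p under 0.05 (20.3% of all genes), and edgeR called Slc17a7 lower without heterozygous mouse 10. Spinal cord markers were too low to test in cerebellum. Choroid plexus genes, led by Ttr, varied widely among control mice, for a cause that was not tested, with summed levels of 1944, 652 and 1116 CPM in control mice and 1814, 1935 and 2068 CPM in heterozygous mice at 5 months, which overlapped. None of the 5 was called by edgeR or DESeq2 or had an unadjusted p under 0.05, and without control mouse 7, the highest of its group, edgeR called Kcne2 higher.

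**Figure D4:**
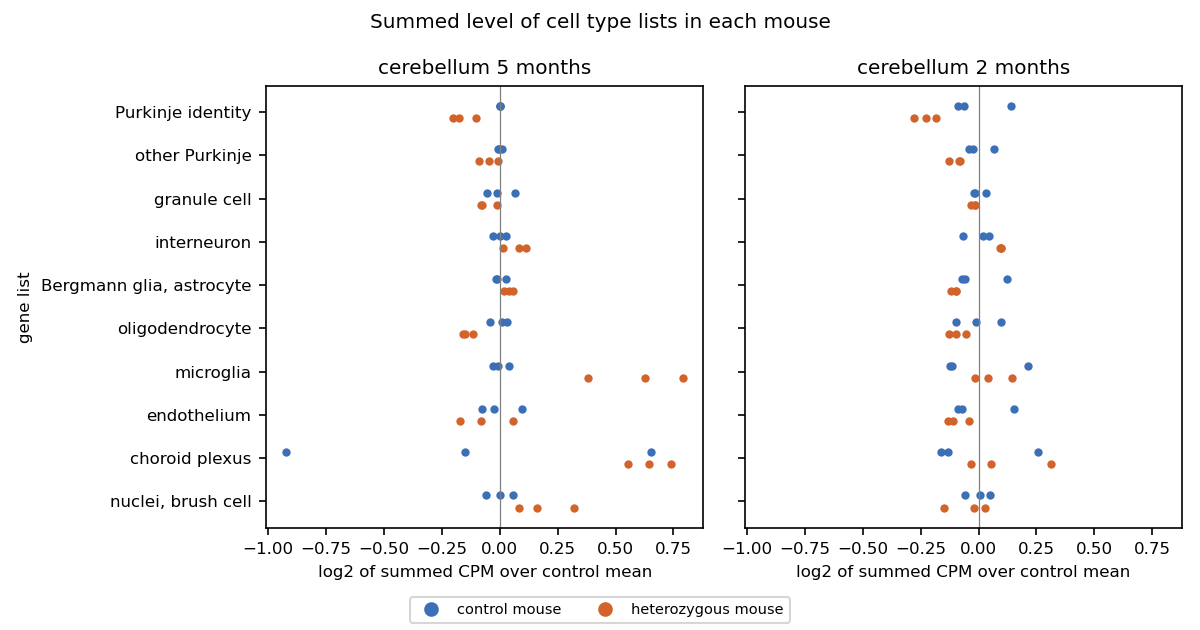
Summed CPM of each cell type list in each mouse as log2 over the mean of the control mice of that age, at 5 months (left) and 2 months (right), 3 mice per genotype. At 5 months the 28 Purkinje cell identity genes and the oligodendrocyte genes of heterozygous mice lie to the left of all control mice and microglial genes and those of nuclei and brush cells to the right, while choroid plexus genes spread widely among control mice.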

How the data were processed

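Bulk RNA-seq of mouse cerebellum, cortex and lumbar spinal cord was used, 24 libraries with 3 mice per genotype and age or tissue, at the depths given in the report. The authors used Trimmomatic 0.30 for trimming and HISAT2 2.0.1 for alignment to mm10, and deposited raw counts per gene made with HTSeq 0.6.1, whose strand setting was not given, from a kit that does not mark strand. The 28 genes and the lists of other cell types were chosen with earlier results of these data known, and some genes of these lists are not reported here. CPM, fold changes and tests were computed here from the counts. Tests used edgeR 4.0.16 in R 4.3.3 with filterByExpr (minimum count 10, minimum total 15), trimmed mean of M values, robust quasi-likelihood F tests and Benjamini-Hochberg adjustment over all genes tested. Calls needed adjusted p < 0.05 with an absolute log2 fold change over 0.2. Scripts were tested on simulated data. Alternatives were DESeq2 1.42.0, its size factors in edgeR, no filter, non-robust dispersions, no fold change threshold, all 12 libraries of a table, an offset for exon length and GC content (loess span 0.4), leaving out each library, and the replicate number as a block. The interactions of genotype and tissue were added after the results were seen. Tables and figures used Python 3.11.15, with gene models of GENCODE M21 on GRCm38 for exon length and overlap. Each gene called at either age by edgeR, by DESeq2 or without control mouse 1 of 2 months was given by mouse, as were Pcp2, Pcp4, Slc1a6, Aldoc, Rora and Skor2.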

Additional observations from a re-analysis of the deposited data

Results flagged for a closer look

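Grid2ip was noted because its genotype groups did not overlap in opposite directions in cerebellum and cortex. Its log2 fold change was −0.37 in cerebellum at 5 months and −0.33 at 2 months, against 0.64 in cortex. In cortex it was at 4.37, 8.52 and 8.01 CPM in control mice and 9.21, 14.1 and 9.44 CPM in heterozygous mice, and the lowest value was that of control mouse 1, whose library stood apart and without which the log2 fold change was 0.41. The difference between cerebellum at 5 months and cortex was tested as an interaction by edgeR and was not called (−1.02 ± 0.28 SE, adjusted p = 0.193), while DESeq2 called it, and that between cerebellum at 2 months and cortex was not tested. Cacna2d2 was noted for the same reason, with −0.11 in cerebellum at 2 months against 0.41 in cortex, a difference that was not tested. In cortex it was at 30.5, 53.8 and 54.5 CPM in control mice and 69.6, 58.6 and 55.9 CPM in heterozygous mice, and without control mouse 1 the log2 fold change was 0.19.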

How the results depend on the processing

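Of the results of single genes under the alternatives at 5 months, 298 kept direction and call status, 27 lost a call, 2 gained a call and 9 reversed. At 2 months 307 kept both, 21 gained a call and 8 reversed. A lost or gained call did not mean a smaller or larger log2 fold change. At 5 months Homer3 lost its call with all 12 libraries in the same model at −0.249, against −0.248. At 2 months Gng13 gained a call without control mouse 1 while its log2 fold change went from −0.60 to −0.40. The number called higher at 5 months was 4, with 1 to 3 when a library was left out. It was 0 with all 12 libraries in the same model, which include control mouse 1 of 2 months. The number called lower at 2 months was 0, against 6 by DESeq2, 5 with all 12 libraries, 2 with no filter on low counts and 0 to 8 when a library was left out. For the interaction with cortex 0 became 2 by DESeq2 and 0 to 2 when a library was left out, and for that with spinal cord 4 and 0 to 3. Except without control mouse 1 at 2 months, no share of all genes called is given for fits that left out a library. The median at 5 months, −0.073, ranged from −0.095 to −0.061 when a library was left out. Inpp5a at 5 months, near 0, turned to −0.0036 by DESeq2, −0.0019 with its size factors, −6.9e-06 with all 12 libraries and −0.0014 with no filter.

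When a library was left out, log2 fold changes ranged from −0.0078 to 0.22 for Skor2 and −0.051 to 0.050 for Inpp5a at 5 months. At 2 months they ranged from −0.16 to 0.19 for Pcp2, −0.15 to 0.049 for Slc1a6, −0.043 to 0.17 for Lhx5, −0.14 to 0.055 for Rora, −0.0094 to 0.20 for Bcl11a, −0.14 to 0.022 for Dner and −0.0059 to 0.042 for Arhgef33. The cause was not tested.

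With the replicate number as a block, a replicate block, 0 of the genes were called in cortex and 0 in spinal cord, as without it. Same-numbered mice had correlations of −0.129, −0.00887 and 0.0354 in cortex and −0.0379, 0.148 and −0.0444 in spinal cord. Differently numbered mice ranged from −0.13 to 0.105 in cortex and from −0.131 to 0.138 in spinal cord. With 3 mice per group these values cannot show whether the numbers pair the mice. Cerebellar mice of each genotype share no numbers.

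With 3 mice per group, some calls turned on single mice, both near the 0.2 threshold (Pcp2) and far from it (Cdr1 and Foxp2). Homer3 (−0.25) and Lhx1 (0.25) kept their calls when any single library was left out. Bulk tissue, the shared change of tissue, age and table, the lack of Cre-only controls, and counts without strand limit what the levels show. Standard errors at 5 months were largest for Cdr1 (0.14 on the log2 scale, n = 3 mice per group), Ebf2 (0.13) and Foxp2 (0.12), of which Ebf2 and Foxp2 had the lowest levels of the 28 (11.2 and 10.3 CPM) and Cdr1 did not.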

Other observations

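Traces of cerebellar genes were found in other tissues. Spinal cord of heterozygous mouse 3 held 240 counts of Pcp2, against 13 to 73 in the other spinal cord libraries, with 1010 counts of Cbln3 against 43 to 264. Spinal cord of control mouse 1 came close to it in Gabra6 (391 against 410 counts) and held 291 counts of Fat2 against 489, where the other spinal cord libraries held 11 to 105 of Gabra6 and 10 to 141 of Fat2. Cortex of heterozygous mouse 2 held 49 counts of Pcp2 against 5 to 21 in the other cortex libraries, and 137 of Cbln3 against 19 to 29. Thy1, whose promoter drives Cre, was at 224 to 314 CPM in cerebellum, 597 to 781 CPM in cortex and 528 to 665 CPM in spinal cord.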
